A study of Mus musculus with 2 samples.

Results

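Nuclei with the transcript profile of migrating neuroblasts were picked out of single-nucleus RNA sequencing of the mouse subventricular zone, the germinal layer that lines the lateral ventricle. They numbered 1693 of 28964 filtered nuclei, 1088 of 16850 in the control library and 605 of 12114 in the library from mice with modeled intestinal perforation (MIP). A nucleus was counted when it held UMIs (unique molecular identifiers, which count captured RNA molecules) of at least 3 of 9 genes, Dlx6os1, Dlx1as, Dlx1, Dlx2, Dlx5, Sp8, Sp9, Sdk2 and Tiam2, and Sp8, Dlx1 or Dlx2 was among them. Up to 1 UMI over the mitotic genes Mki67, Top2a and Cenpf, up to 2 over the striatal genes Rarb, Pde10a, Drd1 and Drd2, up to 1 of the oligodendrocyte precursor gene Pdgfra, and 0 of the interneuron gene Lhx6 were allowed. The animals entered a control or an MIP group at postnatal day 5, and tissue was taken 48 hours later, on day 7. The control mice are labelled healthy. The sources used here give no strain, no sex, no number of pooled animals and no account of how the perforation was modeled. With 1 library per group no test across animals is possible, and every interval below covers counting error only.

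In the postnatal brain, neuroblasts arise in the subventricular zone from dividing progenitors, turn on Dlx transcription factors and doublecortin (Dcx), and travel in chains along the rostral migratory stream to the olfactory bulb. There they become granule and periglomerular interneurons that release GABA. Dlx1 and Dlx2 specify this inhibitory lineage, Sp8 and Sp9 act with them in olfactory bulb interneuron development, and Dcx encodes a microtubule-binding protein of moving young neurons.

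The control library held 16964 barcodes and 146730970 UMIs and the MIP library 12366 barcodes and 100823376 UMIs, over 32285 genes. The MIP neuroblasts were shallower, with a median of 2945 UMIs per nucleus against 3994 in the control, although the medians over all filtered nuclei were 6488.5 and 6206.5. Both libraries contained 115 barcodes in common. Of the neuroblasts, 8 carried a barcode that also occurred in the other library, and 0 barcodes were neuroblasts in both. Among neuroblast UMIs, Xist, the RNA of the inactive X chromosome, had 13635 in the control but 2 in the MIP library, and Y-linked genes had 1 and 1533. The treatment and the sex of the animals therefore cannot be told apart in any difference given here. Mitochondrial UMIs made up 0.640% of control and 0.454% of MIP neuroblast UMIs, and transcripts of ribosomal proteins 1.49% and 0.975%.

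The label was checked against Dcx, which the rule did not use to choose nuclei. Dcx lies on chromosome X at 143855842 to 143933311 (mm10). Its level was 497 CPM (UMIs per 1000000 UMIs of the class in that library) in control and 578 CPM in MIP neuroblasts, against 162 and 166 CPM in all other nuclei, or 3.08 and 3.47 times as high. At least 1 Dcx UMI was found in 894 of 1088 control (82.2%) and 493 of 605 MIP neuroblasts (81.5%), against 55.1% and 56.6% of all filtered nuclei. Nuclei that passed the Dlx part of the rule but exceeded the striatal limit held it in 87.9% and 84.7%. Those nuclei were deeper, with medians of 13755 and 12539 UMIs, and had 222 and 223 CPM of Dcx. The share with a Dcx UMI thus did not set neuroblasts apart from them, while the level was higher in neuroblasts. All of these levels are descriptions, because the nuclei were chosen by transcripts of the same nuclei. Dcx went up with the number of the 9 genes detected, from 300 CPM at 3 genes to 697 CPM at 7 genes in the control library and from 295 to 868 CPM in the MIP library. At 8 genes it was 705 CPM in 22 control nuclei and 734 CPM in 7 MIP nuclei. At 9 genes it was 1230 CPM in 4 control nuclei and 618 CPM in 1 MIP nucleus, so the MIP level fell after 7 genes. Just outside the rule, nuclei with 2 of the genes had 154 CPM of Dcx in 202 control nuclei and 195 CPM in 100 MIP nuclei. Nuclei with 3 striatal UMIs in place of 2 had 364 and 334 CPM against 442 and 434 CPM just inside. Those with 2 mitotic UMIs in place of 1 had 478 and 454 CPM against 524 and 499 CPM. Control nuclei with 1 Lhx6 UMI had 397 CPM of Dcx, and MIP ones 436 CPM.

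Of the 9 genes themselves, Sp8 (chromosome 12, 118846329 to 118852576) stood at 91.5 CPM in control and 107 CPM in MIP neuroblasts, 15.5 and 35.7 times its level in other nuclei. Dlx1 (chromosome 2, 71528113 to 71533981) had 201 and 209 CPM. Dlx6os1, a long noncoding RNA next to Dlx5 (chromosome 6, 6820189 to 6871592), had 1111 and 925 CPM. Dlx1as (chromosome 2, 71516454 to 71537891) spans Dlx1 on the opposite strand and has its own counts, at 228 and 177 CPM. How the counting used strand is not given in the sources used here, and any exchange of reads between them was not tested.

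The 20 genes outside the rule that stood furthest above other nuclei in both libraries ranged from 4.14 to 7.94 times as high in the control, with a median of 4.99, and from 4.34 to 12.3 times in the MIP library, with a median of 6.39. Mob3b, a kinase activator (chromosome 4, 34949074 to 35157484), had 201 CPM in control and 188 CPM in MIP neuroblasts, 7.94 and 12.3 times other nuclei. Cdca7 and Cdca7l, which encode related zinc finger proteins of cell cycle and chromatin control, stood 6.37 and 6.13 times as high in the control and 10.7 and 9.93 times in the MIP library. Prokr2, the receptor for a secreted protein that draws neuroblasts to the olfactory bulb, had 43.2 and 46.4 CPM, 6.07 and 10.7 times other nuclei. The transcription factors Etv1 and Pax6, which act in the development of olfactory bulb interneurons, were 4.70 and 4.38 times as high in the control and 5.56 and 4.34 times in the MIP library. Igfbpl1 (chromosome 4, 45809468 to 45826923), a secreted protein with an insulin-like growth factor binding motif, was 4.79 and 6.40 times as high. Ccnd2, a D-type cyclin of proliferating precursors, was 5.24 and 7.21 times as high. They were chosen for being high in both libraries. Their log2 ratios of MIP to control ran from -0.30 to 0.47 with a median of -0.05, and 0 of them differed by 1.5 times or more, where 4.48% of all measured genes were higher by that much and 17.2% lower. The plot of enrichment in each library shows the rule genes beside them.

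**Figure D1:**
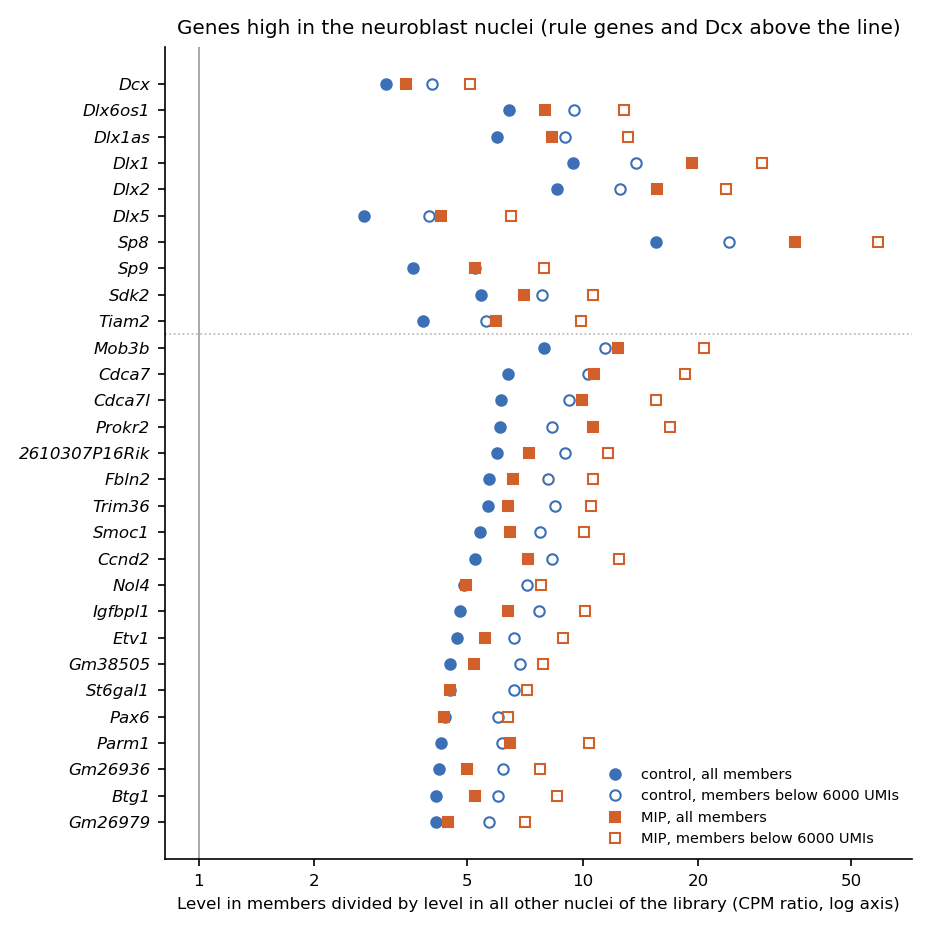
Level in neuroblasts divided by the level in all other filtered nuclei (log axis), for the rule genes, Dcx and the highest genes outside the rule, with filled points for all neuroblasts and open points for those below 6000 UMIs in each library. The filled points of the genes below the dotted line lie at 4.14 or above in the control library and at 4.34 or above in the MIP library.

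The neuroblasts were not uniform in depth, and the depth marked a difference in content. Nuclei of 6000 UMIs or more were 272 of the control neuroblasts (25%) and 119 of the MIP ones (19.7%), yet they held 50.1% and 48.0% of all neuroblast UMIs. In the deepest of them, at 10000 UMIs or more, Dcx stood at 268 CPM in the control and 274 CPM in the MIP library, against 621 and 956 CPM in nuclei of 2000 to 3000 UMIs. Igfbpl1 went from 571 to 63.8 CPM in the control and from 464 to 72.3 CPM in the MIP library over the same bins. Genes of mature neurons were higher in the deepest bin. Meg3, a long noncoding RNA abundant in neurons, went from 2781 to 10389 CPM in the control and from 3111 to 13690 CPM in the MIP library, and Snhg11, a neuronal noncoding RNA, from 461 to 4210 CPM and from 560 to 4602 CPM. The synaptic vesicle calcium sensor Syt1 went from 250 to 1447 CPM and from 458 to 1810 CPM. The 29 control neuroblasts under 2000 UMIs did not follow these orders, with Dcx at 244 CPM and Snhg11 at 1509 CPM, while the 95 MIP ones had 935 and 664 CPM. Deeper nuclei pass the rule of 3 detected genes at lower levels of those genes, and a droplet that holds 2 nuclei is deeper than one that holds 1. Among the deep neuroblasts 17.6% of control and 20.2% of MIP nuclei were in the top share of doublet scores, against 7.72% and 3.70% of the shallower ones. What part doublets or older neurons have in the deep nuclei was not tested. The 816 control and 486 MIP neuroblasts below 6000 UMIs are therefore given beside the whole set for many of the results, a division chosen after the values were seen. In these, Dcx was at 654 and 848 CPM, and the 20 genes above had median enrichments of 7.54 and 10.1 times.

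**Figure D2:**
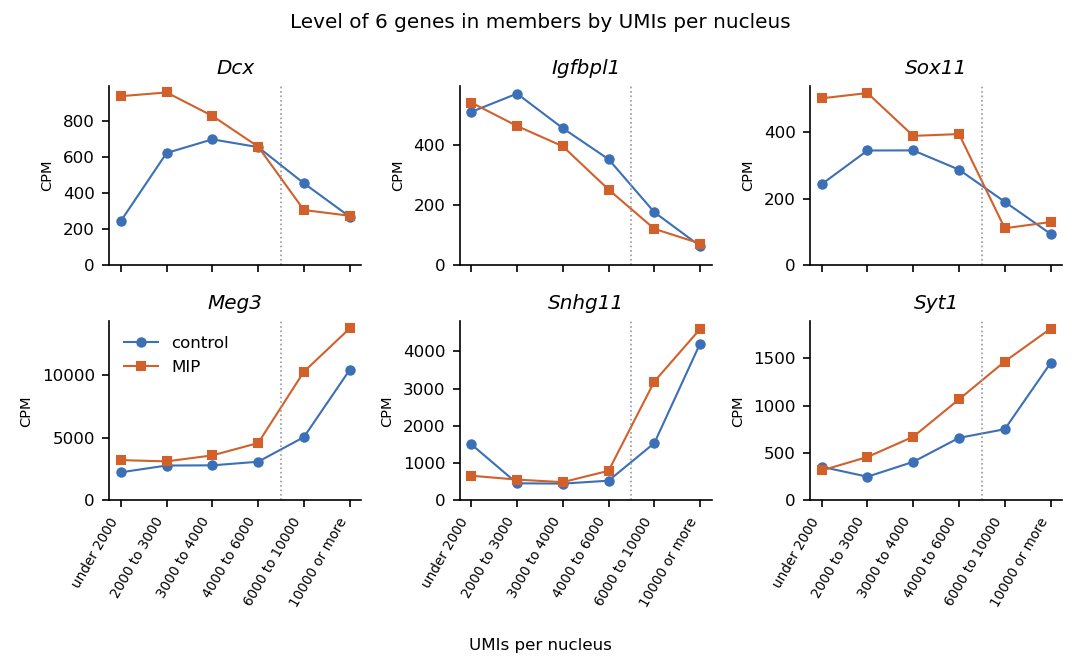
Level in CPM of 3 neuroblast genes and 3 neuron genes in neuroblasts grouped by UMIs per nucleus, with 1 line per library and a dotted line at 6000 UMIs. Igfbpl1 is lower and Snhg11 higher in the nuclei above the dotted line than in those of 2000 to 6000 UMIs, in both libraries.

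Neighbouring classes of nuclei were set beside the neuroblasts. Cycling nuclei that passed the Dlx part of the rule and held at least 4 mitotic UMIs were 167 in control and 59 in MIP tissue. Egfr (chromosome 11, 16752203 to 16918158), the epidermal growth factor receptor of transit amplifying progenitors, was at 386 and 296 CPM in cycling nuclei and at 89.8 and 78.7 CPM in neuroblasts. Adarb2 stood at 1055 and 1392 CPM in cycling nuclei and at 3316 and 3583 CPM in neuroblasts, and Pbx3, a homeodomain cofactor, at 664 and 427 CPM against 1871 and 1052 CPM. Striatal nuclei, with at least 10 UMIs over the 4 striatal genes, had 139 and 140 CPM of Dcx. Their Rbfox3, the neuronal nuclear antigen NeuN, was at 325 and 368 CPM against 91.4 and 87.1 CPM in neuroblasts below 6000 UMIs.

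To compare how many nuclei held a gene, each neuroblast below 6000 UMIs was thinned at random to 1500 UMIs, which left out 13 control and 22 MIP nuclei that were shallower. Nuclei with at least 5 of 8 microglial genes were thinned alike and served as a background, since microglia should hold none of the neuronal genes. Their median depths were 3612 UMIs (control) and 3071 UMIs (MIP), against 3507 and 2605.5 in the neuroblasts. The class had no limit on depth or on neuronal genes, and 29.4% and 21.3% of it held 6000 UMIs or more. In the top share of doublet scores were 27.1% and 20.7% of it, against 7.72% and 3.70% of these neuroblasts. The microglial shares can thus hold free RNA and doublets, and the part of each was not tested. Dcx was found in 57.7% of thinned control neuroblasts (54.2 to 61.1, exact Clopper-Pearson interval) and 65.7% of MIP ones (61.2 to 70.0), against 6.93% and 7.21% of microglial nuclei. Without thinning the Dcx shares were 80.6% and 81.1%, and the microglial ones 26.2% and 20.9%.

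Transcription factors that divide olfactory bulb interneurons into types were each found in a part of the neuroblasts. Sp8, which is needed for calretinin interneurons, was found in 19.9% and 25% of thinned nuclei against 1.39% and 0.450% of microglial nuclei. Its share is a description only, because Sp8 is a rule gene. Pax6, needed for dopaminergic periglomerular neurons, was found in 20.8% and 20.3% against 2.54% and 1.13%. Etv1, a factor of dopaminergic and other bulb interneurons, was found in 41.5% and 37.7%, with a higher microglial share of 14.3% and 20.5%. Tshz1, which is required for granule cells to leave the migratory stream and take up position, was found in 27.9% and 25.2% against 6.47% and 6.08%. Products of mature bulb interneurons were found in small shares of the neuroblasts. Th, the rate-limiting enzyme of dopamine synthesis, was found in 0.249% of thinned control and 0.431% of thinned MIP neuroblasts, and Scgn, a calcium sensor of bulb interneurons, in 0.125% and 0 of 464. A count of 0 allows up to 0.647% of nuclei with a Scgn UMI, taken as 3 nuclei of 464. Calb1 was found in 8.09% and 5.60% of neuroblasts against 7.85% and 5.18% of microglial nuclei, so it was near that background. Calb2, the calretinin gene, was found in 5.98% of control and 3.02% of MIP neuroblasts against 3.93% and 1.80%.

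Adarb2, an RNA editing enzyme family member known as a marker of caudal ganglionic eminence interneurons (chromosome 13, 8202866 to 8768747), was found in 73.2% and 78.0% of the thinned neuroblasts, against 15.9% and 13.5% of microglial nuclei. Its level divided the neuroblasts by other genes. In a further random thinning to 1500 UMIs, 227 control nuclei had 0 Adarb2 UMIs, 257 had 1 to 4 and 319 had 5 or more, and of the MIP nuclei 100, 195 and 169. Along these 3 bins Pbx3 went from 543 to 1629 to 4539 CPM in the control and from 513 to 1050 to 2296 CPM in the MIP library. Erbb4, the neuregulin receptor of migrating neuroblasts, went from 2690 to 4859 to 8993 CPM and from 2993 to 5439 to 10028 CPM. Tshz1, Foxp2 and Prokr2 went up along the bins in both libraries as well, Tshz1 from 106 to 447 CPM in the control and from 140 to 339 CPM in the MIP library. Egfr was highest in the bin of 0, at 179, 28.5 and 31.3 CPM along the bins of the control and 93.3, 34.2 and 47.3 CPM in the MIP library. Slc1a3, the glutamate transporter of radial glia and astrocytes, went from 452 to 182 CPM and from 467 to 193 CPM, and Pax6 from 238 to 150 CPM and from 213 to 94.7 CPM. Dcx did not follow the bins, at 617, 586 and 700 CPM in the control and 833, 896 and 817 CPM in the MIP library.

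**Figure D3:**
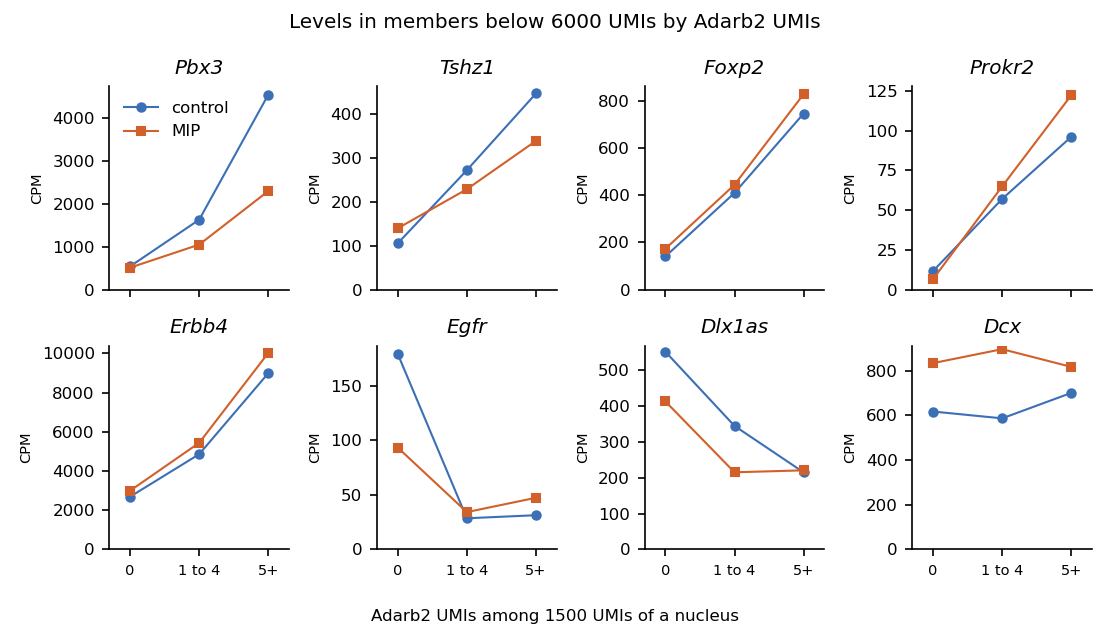
Level in CPM of 8 genes in thinned neuroblasts below 6000 UMIs with 0, 1 to 4, and 5 or more Adarb2 UMIs, 1 line per library. Pbx3 and Erbb4 are higher and Egfr lower in the bin of 5 or more than in the bin of 0, in both libraries.

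Pairs of genes within single nuclei were counted as well. In the thinning used for the Adarb2 bins, Tshz1 was found in 229 control nuclei and Foxp2 in 34.1% of them (27.9 to 40.6), against 19.2% (16 to 22.6) of the nuclei without Tshz1. In the MIP library these shares were 41.5% and 21.4%. Pbx3 was found in 80.8% of control nuclei with Tshz1 and 48.3% of those without, and in 67.8% and 45.1% in the MIP library. Etv1 was found in 48.5% of control nuclei with Sp8 (40.8 to 56.3) and 35.4% of those without (31.7 to 39.3), and in 50% and 34.6% in the MIP library. Dcx was found in 63.2% of control nuclei with Sp8 and 57.1% of those without, and in 73.0% and 63.0% in the MIP library. Pax6 was found in 21.1% against 20.1% in the control and 23.0% against 15.7% in the MIP library. Foxp2 was found in 18.1% of control nuclei with Sp8 and 24.8% of those without. In the MIP library it was found in 19.0% and 29.3%. Foxp2 was found in 17.3% of nuclei with Etv1 against 27.2% of those without in the control and 18.9% against 31.3% in the MIP library. Since the rule asks for Sp8, Dlx1 or Dlx2, the lower share of Dlx1 among nuclei with Sp8, 30.4% against 41.6% in the control, is built into the selection. The rule also shapes which nuclei without Sp8 are present, so the other shares with and without Sp8 are descriptions only.

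Neuroblasts made up 6.46% of filtered control nuclei (6.09 to 6.84) and 4.99% of filtered MIP nuclei (4.61 to 5.40), a log2 ratio of -0.37 (-0.52 to -0.23). After thinning to 1500 UMIs, the shares were 4.78% of 13444 and 3.04% of 11265 nuclei, since 3406 control and 849 MIP nuclei were shallower and were left out. Cycling nuclei with the same Dlx genes made up 0.991% and 0.487%. Taken as a share of the nuclei that passed the Dlx part of the rule, before the limits on mitotic, striatal, Lhx6 and Pdgfra transcripts, the direction turned, with neuroblasts at 38.4% (control) and 44.6% (MIP). Striatal nuclei were 25% of the control and 29.9% of the MIP library. The dissection sets what share of the nuclei comes from each region, and its part in the difference was not tested.

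Differences between MIP and control neuroblasts were measured as log2 ratios of CPM from summed UMIs. Of 14452 genes with at least 20 UMIs over both libraries, 647 (4.48%) were at least 1.5 times higher in MIP neuroblasts and 2482 (17.2%) at least 1.5 times lower, and the median log2 ratio was -0.09. Below 6000 UMIs, 884 of 12472 genes (7.09%) were higher, 1885 (15.1%) were lower and the median was -0.05. These shares are the background for each group of genes that follows.

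The rule genes chose the nuclei, so their levels in the libraries are a description only. Of these 9 genes 0 were past 1.5-fold, with a median of 0.06 over all neuroblasts and 0.11 below 6000 UMIs. Dlx1 had 1183 control and 559 MIP UMIs, a log2 ratio of 0.06 (-0.09 to 0.20), and Dlx2 had 438 and 194, a ratio of -0.04 (-0.29 to 0.21). Sp9 was higher by 0.50 (0.29 to 0.70), and Dlx1as lower, at -0.36 (-0.52 to -0.21). Dcx, from 2923 and 1544 UMIs, was higher in MIP neuroblasts by 0.22 (0.13 to 0.31), and by 0.37 (0.27 to 0.48) below 6000 UMIs. A shallower nucleus needs a higher level of the rule genes to show 3 of them, and MIP neuroblasts were the shallower ones. Dcx is X-linked as well. The part of depth or sex in the Dcx difference was not tested.

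Of 27 other neuroblast genes, 1 was at least 1.5 times higher and 2 were lower (median -0.09). Sox11, a transcription factor of newly formed neurons, had 225 CPM in control and 296 CPM in MIP neuroblasts, a log2 ratio of 0.39 (0.26 to 0.52), and 0.52 below 6000 UMIs. Gad1, which makes GABA, was higher by 0.18 (0.07 to 0.29). The gene past 1.5-fold upward, Vax1, rested on 12 and 10 UMIs, with an interval of -0.49 to 2.21. Pbx3 (chromosome 2, 34171457 to 34373142) was the furthest below, with 10997 UMIs or 1871 CPM in control and 2809 UMIs or 1052 CPM in MIP neuroblasts, a log2 ratio of -0.83 (-0.89 to -0.77). It was -0.78 below 6000 UMIs and lower in each of the 3 bins of Adarb2, at 513 against 543 CPM in the bin of 0 and 2296 against 4539 CPM in the bin of 5 or more. Other nuclei had 667 and 494 CPM of Pbx3, and cycling nuclei 664 and 427. At 1500 UMIs per nucleus Pbx3 was found in 55.4% of control and 50% of MIP neuroblasts, beside 34.4% and 34.9% of microglial nuclei. Bcl11b, a zinc finger factor of striatal and bulb neurons, was lower at -0.61 (-0.80 to -0.43). In other nuclei Bcl11b was at 315 and 224 CPM. Among 19 measured genes of bulb interneuron subtypes, 2 were higher and 2 lower (median -0.22), and below 6000 UMIs 1 of 18 was higher and 5 lower (median -0.24). The peptide gene Cck was higher by 0.82 (0.40 to 1.22) on 115 and 92 UMIs, and the synaptic vesicle gene Synpr lower, at -0.59 (-0.70 to -0.47). Meis2, a homeobox factor of bulb interneurons, was at 3715 and 2820 CPM, a ratio of -0.40 (-0.44 to -0.36).

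Receptors that steer migrating neuroblasts were mostly within 1.5-fold. Of 38 measured guidance and chemotactic genes 0 were higher and 3 lower (median 0.10), and below 6000 UMIs 0 of 36 were higher and 5 lower (median 0.01). Robo1 and Robo2 are receptors for Slit, the repellent that keeps neuroblasts moving rostrally. Robo1 (chromosome 16, 72308306 to 73046095) had 814 CPM in control and 1077 CPM in MIP neuroblasts, a log2 ratio of 0.40 (0.34 to 0.47), while Robo2 had 2391 and 1946 CPM, a ratio of -0.30 (-0.34 to -0.25). Below 6000 UMIs the Robo1 ratio was 0.58 and the Robo2 ratio -0.33. The Robo1 difference was largest in the bin of 0 Adarb2 UMIs, at 473 CPM (control) and 1020 CPM (MIP). It was smaller in the bin of 1 to 4, at 327 and 438 CPM, and in the bin of 5 or more, at 412 and 442 CPM. The pair thus differed between the libraries in opposite directions. In other nuclei both were slightly higher, with Robo1 at 2021 and 2252 CPM and Robo2 at 982 and 1101 CPM. Erbb4 had 5080 and 5633 CPM, a ratio of 0.15 (0.12 to 0.18), and the netrin receptor Unc5d was higher by 0.37 (0.28 to 0.46). In other nuclei Unc5d was at 547 and 774 CPM. The semaphorin genes Sema3c and Sema6a were lower. Sema3c had 171 and 33 UMIs, a ratio of -1.24 (-1.82 to -0.69) that was -2.40 below 6000 UMIs on 67 and 6 UMIs. Sema6a was at -0.77 (-0.97 to -0.57). The third gene past 1.5-fold, Efna5, an ephrin ligand, was at -0.61 (-0.80 to -0.42) and at -0.52 below 6000 UMIs.

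Of 20 adhesion genes 0 were higher and 1 lower (median 0.11). Ncam1 carries the polysialic acid that lets neuroblasts slide over one another, and St8sia2 is a sialyltransferase that adds it. Ncam1 was at 1343 and 1426 CPM, a ratio of 0.09 (0.03 to 0.14), and St8sia2 at 97.7 and 127 CPM, a ratio of 0.37 (0.18 to 0.57). The gene that was lower, Tnc (chromosome 4, 63959785 to 64047015), encodes tenascin C, a matrix glycoprotein of the tissue around the migratory stream. It had 721 and 113 UMIs, in 143 control and 41 MIP neuroblasts, a ratio of -1.54 (-1.83 to -1.25), which was -0.997 below 6000 UMIs. Among 28 cytoskeletal and motility genes 1 was higher and 3 lower (median -0.06). The tubulins Tuba1a and Tubb2b were lower at -0.62 (-0.69 to -0.54) and -0.60 (-0.72 to -0.48), and the kinase gene Pak3 higher at 0.50 (0.40 to 0.59). In other nuclei Tuba1a was at 732 and 417 CPM and Tubb2b at 304 and 177 CPM. Pak3 was there at 283 and 379 CPM, so each differed in the same direction as in neuroblasts. Rnd2, which acts in radial migration, was lower at -0.97 (-1.75 to -0.25). The gene that was higher, Myo5b, at 1.65, rested on the deep nuclei and was at 0.43 on 11 and 7 UMIs below 6000 UMIs.

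Several clock genes were higher in MIP neuroblasts. Of 22 measured, 5 were past 1.5-fold upward and 1 downward (median 0.22), beside 4.48% and 17.2% of all genes and a median of -0.09. Below 6000 UMIs 5 of 19 were higher and 0 lower (median 0.29). The proteins of Per and Cry genes repress their own transcription through the clock activators Clock and Arntl, which bind E-boxes. Per2 (chromosome 1, 91415982 to 91459324) had 36 UMIs in 36 control neuroblasts and 63 UMIs in 57 MIP neuroblasts, or 6.13 and 23.6 CPM. Its log2 ratio was 1.95 (1.33 to 2.58), and 1.64 (0.75 to 2.56) below 6000 UMIs. Cry1 (chromosome 10, 85131700 to 85185064) had 127 and 138 UMIs in 105 and 99 nuclei, a ratio of 1.26 (0.90 to 1.62), and 1.16 below 6000 UMIs. Cry2 was higher by 0.97 (0.69 to 1.25). Per1 (chromosome 11, 69095217 to 69109960) was higher by 0.82 (0.22 to 1.42) over all neuroblasts and by 0.29 (-0.74 to 1.26) below 6000 UMIs. The activators were within 1.5-fold, with Arntl at 0.23 (-0.11 to 0.56) and Clock at 0.22 (0.03 to 0.40). The gene that was lower, Bhlhe41, rested on 52 and 14 UMIs, with an interval of -1.72 to 0.12. Other nuclei differed in the same direction, where Per2 went from 10.5 to 25.4 CPM, Cry1 from 27.2 to 60.7 CPM and Cry2 from 46.5 to 87.0 CPM. The time of day at which each library's tissue was taken is not given in the sources used here, and its part in these values was not tested.

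Because Per1, Per2, Cry1 and Cry2 were all higher, the 250 bases before the start of Cry1, Per1 and Cry2 are shown, from RefSeq on GRCm38.p6, with capitals marking the E-box CACGTG. This palindrome, which reads alike on both strands, occurred in 7.15% of all 32851 promoter windows of 250 bases before to 50 after a start, and in at least 1 window of 8.09% of 27025 genes. Of the 22 clock genes 18 were matched in the promoter table, Per2 not among them, and 5 of these, Bhlhe41, Ciart, Cry1, Per1 and Tef, had at least 1 match. In Cry1 (chr10:85185055-85185304, minus strand) the match began 60 bases before the start, and in the first promoter of Per1 (chr11:69098699-69098948, plus strand) 166 bases before it. The second promoter of Per1 held no match. In Cry2 (chr2:92434070-92434319, minus strand) these letters are not in the window. The D-box TTATGTAA, searched on both strands, was in 0.938% of promoters and, among the clock genes, in Per3. Ciart and Tef, both with E-boxes, had log2 ratios of 0.21 and 0.20, and Cry2 without one had 0.97. Bhlhe41, also with an E-box, had -0.75, with the interval given above.
Cry1: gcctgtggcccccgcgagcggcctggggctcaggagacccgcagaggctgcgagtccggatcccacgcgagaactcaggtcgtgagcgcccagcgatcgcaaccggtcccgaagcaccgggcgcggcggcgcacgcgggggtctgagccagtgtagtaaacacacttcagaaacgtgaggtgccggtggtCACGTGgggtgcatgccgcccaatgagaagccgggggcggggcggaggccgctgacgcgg
Per1: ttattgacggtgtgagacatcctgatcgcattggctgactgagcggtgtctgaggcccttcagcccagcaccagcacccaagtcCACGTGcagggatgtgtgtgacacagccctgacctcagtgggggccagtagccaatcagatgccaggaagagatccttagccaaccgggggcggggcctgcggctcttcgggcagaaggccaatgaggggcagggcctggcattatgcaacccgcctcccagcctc
Cry2: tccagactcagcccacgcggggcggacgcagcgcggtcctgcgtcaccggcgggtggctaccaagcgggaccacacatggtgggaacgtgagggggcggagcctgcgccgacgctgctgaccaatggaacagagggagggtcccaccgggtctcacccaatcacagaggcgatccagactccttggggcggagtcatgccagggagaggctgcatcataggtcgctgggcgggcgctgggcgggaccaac

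Glucocorticoid-responsive genes lay on both sides of the background. Of 22 measured 2 were higher and 2 lower (median -0.10). Fkbp5 (chromosome 17, 28399094 to 28517527), a co-chaperone of the glucocorticoid receptor and one of its well known targets, had 284 and 280 UMIs, or 48.3 and 105 CPM, a log2 ratio of 1.12 (0.87 to 1.36) and 0.72 (0.36 to 1.08) below 6000 UMIs. It was found in 213 control and 169 MIP neuroblasts, and in other nuclei it had 49.6 and 109 CPM. Tsc22d3, another target, was at 0.51 (-0.29 to 1.29) on 37 and 24 UMIs, and Zbtb16 was lower at -0.46 (-0.80 to -0.13). Of 17 genes of interleukin 6 family signalling and the acute phase, 4 were higher and 2 lower (median 0.11). Stat3 (chromosome 11, 100885098 to 100939540), the transcription factor activated by these cytokines, was at 40.7 and 65.9 CPM, a ratio of 0.70 (0.41 to 0.98) and 0.69 below 6000 UMIs. With the rule applied to nuclei thinned to 1500 UMIs the Stat3 ratio was -0.30, on fewer UMIs. In other nuclei Stat3 was at 28.1 and 64.0 CPM. Its target Socs3, a feedback inhibitor, had 13 and 9 UMIs in neuroblasts, a ratio of 0.61 (-0.80 to 1.95). The survival kinase gene Pim1, also a Stat3 target, was higher by 0.96 (0.29 to 1.62), and at 0.79 (-0.07 to 1.64) below 6000 UMIs. Of 11 interferon response genes measured, 1 was higher and 1 lower, and of the 28 in the files 2 had 0 UMIs in control neuroblasts and 9 in MIP neuroblasts, which held fewer UMIs in all.

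Outside the lists, the 15 genes highest in MIP neuroblasts included several that were spread over many nuclei. Pkia (chromosome 3, 7366669 to 7445366), an inhibitor of protein kinase A, had 1235 and 1087 UMIs, or 210 and 407 CPM, a log2 ratio of 0.95 (0.84 to 1.07). It was found in 613 of 1088 control and 427 of 605 MIP neuroblasts, and its ratio was 1.16 (1.01 to 1.32) below 6000 UMIs. In other nuclei Pkia was at 191 and 285 CPM. Fam219a, Asb14 and Elmsan1 were higher by 1.08, 1.57 and 1.49 and stayed past 1.5-fold below 6000 UMIs, at 0.99, 1.85 and 1.17. The adhesion gene Cntn4 was higher by 1.14 (1.03 to 1.26), although it was found in only 191 control and 141 MIP neuroblasts, and its ratio below 6000 UMIs was 1.08 on 121 and 121 UMIs.

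Other genes among the 15 rested on a few nuclei. Of the 161 MIP UMIs of Ttr, a transport protein of the choroid plexus, 134 were in 1 nucleus, and without the top share of doublet scores its ratio went from 2.17 to -0.30. Reln, which encodes the extracellular signal reelin that detaches neuroblasts from their chains, had 324 and 471 UMIs, a ratio of 1.68 (1.47 to 1.89). In the MIP library 55.6% of the Reln UMIs were in 5 nuclei, and below 6000 UMIs the ratio was 0.19 (-0.35 to 0.70). In all, 11 of the 15 stayed at least 1.5 times higher below 6000 UMIs. These 11 still include Ttr, and also Col19a1, which had 97 of its 155 MIP UMIs in 5 nuclei. The genes that did not stay past 1.5-fold were Myo5b, Reln, Sec24d and Kctd16. The plot of the named genes shows both sets of ratios with their intervals.

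**Figure D4:**
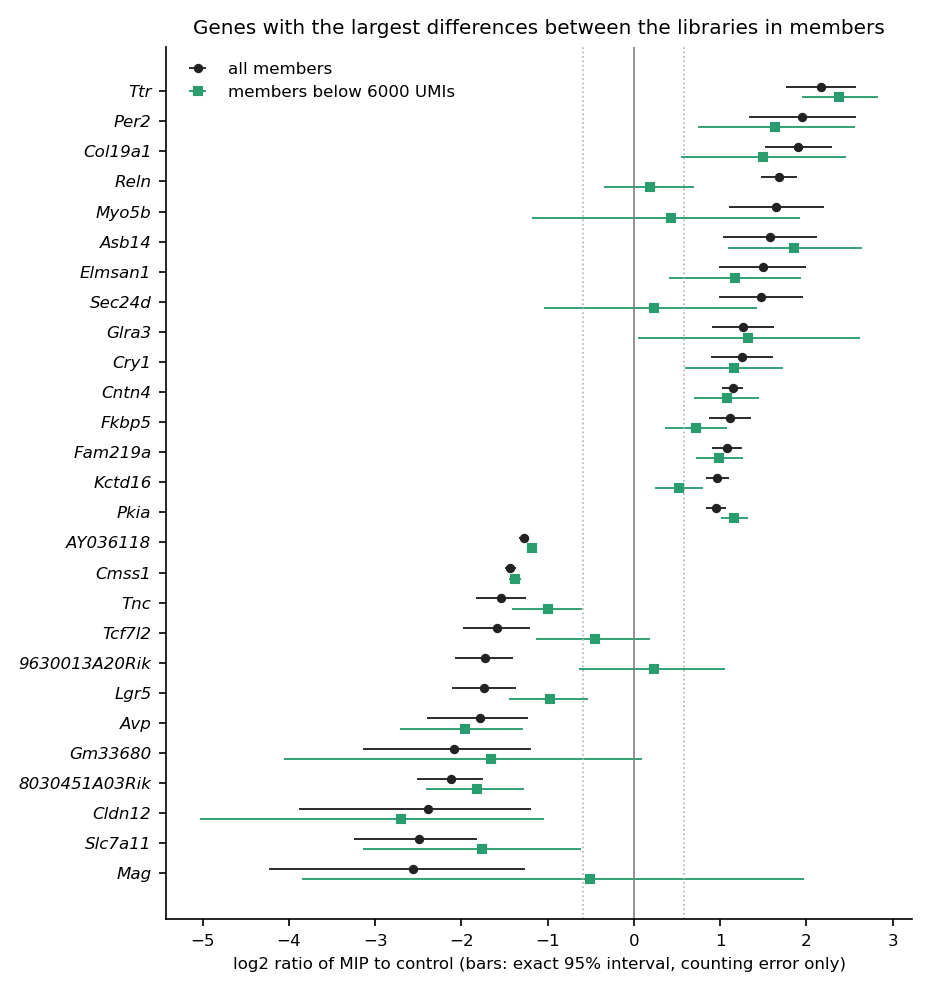
Log2 ratio of MIP to control with its exact interval, which covers counting error only, for most of the genes furthest from 0 in each direction, over all neuroblasts and over those below 6000 UMIs. Pmch and Mobp, with 0 and 1 UMIs in MIP neuroblasts, are left out, and Reln, Myo5b and 9630013A20Rik sit near 0 below 6000 UMIs.

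On the lower side, Lgr5 (chromosome 10, 115450311 to 115587780), a receptor for R-spondins that strengthens Wnt signalling, was among the genes enriched in control neuroblasts. It had 519 UMIs or 88.3 CPM in control and 71 UMIs or 26.6 CPM in MIP neuroblasts, a log2 ratio of -1.73 (-2.11 to -1.37), and was found in 105 of 1088 and 25 of 605 nuclei. Neuroblasts stood 7.26 times above other nuclei in the control and 2.52 times in the MIP library, where other nuclei had 12.2 and 10.5 CPM. Below 6000 UMIs the Lgr5 ratio was -0.98 (-1.44 to -0.53). At 1500 UMIs per nucleus 6.23% of control neuroblasts held it (4.66 to 8.13) and 2.80% of MIP ones (1.5 to 4.74), above the 0.462% and 0.225% of microglial nuclei. The 20 measured Wnt pathway genes had a median of -0.07, 1 of them higher and 3 lower. Below 6000 UMIs 3 of 18 were higher and 2 lower, and Tcf7l2, a Wnt effector, went from -1.58 to -0.45 below 6000 UMIs.

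Slc7a11 (chromosome 3, 49892526 to 50443614), the cystine and glutamate exchanger, had 235 UMIs in 87 control neuroblasts and 19 UMIs in 14 MIP neuroblasts, a ratio of -2.49 (-3.25 to -1.81) and -1.76 (-3.14 to -0.61) below 6000 UMIs. In other nuclei Slc7a11 was at 26.5 and 18.8 CPM. Atf4 and Asns, a stress-induced factor and its target in amino acid synthesis, were at -0.41 (-0.86 to 0.01) and 0.29 (-0.17 to 0.73). The long noncoding RNA 8030451A03Rik was lower at -2.12, on 613 and 64 UMIs, and at -1.82 below 6000 UMIs. Some of the lowest genes were peptide and myelin genes of other cells. Pmch, a hypothalamic peptide gene, had 77 UMIs in control and 0 in MIP neuroblasts, and the exact interval put the log2 ratio at or below -3.21. It had 12.3 and 0.102 CPM in other nuclei. Avp, the vasopressin gene, had 220 and 29 UMIs in neuroblasts and 30.9 and 8.73 CPM in other nuclei. Of the 62 control UMIs of Mobp, 60 were in 1 nucleus, as were 35 of the 65 of Mag and 279 of the 620 of 9630013A20Rik. In all, 10 of the 15 lowest genes stayed at least 1.5 times lower below 6000 UMIs.

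Markers of other cell types were compared in the same nuclei. Of 10 oligodendrocyte lineage markers 9 were lower in MIP neuroblasts, with a median of -1.11, and 5 of 8 measured below 6000 UMIs, with a median of -0.68. Their summed level was 451 and 356 CPM in neuroblasts below 6000 UMIs, 711 and 343 CPM in the deep ones and 423 and 332 CPM in other nuclei, and none was at 0. Of 10 astroglial markers 5 were lower (median -0.52), and the sums were 1350 and 1332 CPM below 6000 UMIs against 2701 and 1622 CPM in the deep nuclei. Of 9 microglial markers measured 3 were higher and 3 lower, and the list summed to 194 and 147 CPM below 6000 UMIs. Vascular markers, 0 higher and 1 lower of 5, summed to 29.3 and 28.1 CPM, with Lum at 0 UMIs in MIP neuroblasts. Ependymal markers, 0 higher and 5 lower of 8, summed to 61.0 and 59.1 CPM, with Ccdc153 at 0 in MIP neuroblasts. Markers of excitatory neurons, 2 higher and 0 lower of 9, summed to 167 and 155 CPM below 6000 UMIs and to 431 and 576 CPM in the deep nuclei, where MIP exceeded control, and Emx1 among them was at 0 UMIs in MIP neuroblasts. Markers of spiny projection neurons, 0 higher and 4 lower of 10, summed to 995 and 816 CPM below 6000 UMIs against 3513 and 2910 CPM in other nuclei. Interneuron markers were above other nuclei. Those of Adarb2 interneurons, Adarb2 among them, were 2 higher and 2 lower of 10. They summed to 3964 and 3808 CPM below 6000 UMIs against 1942 and 1931 CPM. Those of Lhx6 interneurons, 0 higher and 2 lower of 8, summed to 1461 and 1051 CPM against 1025 and 906 CPM, although the rule allowed 0 Lhx6 UMIs. The part of these other cell types in the differences above was not tested.

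Of 22 stem cell and progenitor genes 2 were higher in MIP neuroblasts and 11 lower (median -0.57), and below 6000 UMIs 1 was higher and 7 lower (median -0.41). Fabp7, the brain lipid-binding protein of radial glia, had 1168 and 208 UMIs, or 199 and 77.9 CPM, a log2 ratio of -1.35 (-1.57 to -1.14) and -1.32 below 6000 UMIs. In other nuclei Fabp7 was at 137 and 52.6 CPM. Vim, the intermediate filament of neural stem cells, was lower at -1.42 (-2.28 to -0.64) on 94 and 16 UMIs. Hes6, which promotes neuronal differentiation, was higher by 0.67 (0.23 to 1.10) and by 0.80 below 6000 UMIs, where other nuclei had 11.0 and 10.4 CPM. Hes1, a Notch effector that maintains progenitors, was higher by 0.86 (0.25 to 1.48) on 52 and 43 UMIs, and at 0.37 (-0.86 to 1.53) below 6000 UMIs. In other nuclei Hes1 differed in the same direction, at 8.83 and 16.6 CPM. Egfr was at -0.19 (-0.43 to 0.04). Of 15 hedgehog pathway genes 0 were higher and 5 lower (median -0.50) that was -0.02 below 6000 UMIs. The receptor gene Ptch1 was lower at -0.56 (-0.88 to -0.25) and at -0.39 (-0.84 to 0.05) below 6000 UMIs, and the co-receptor gene Cdon was higher by 0.45 (0.26 to 0.63). Gli1, the readout gene of the pathway, had 12 and 2 UMIs.

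Nuclear genes of oxidative phosphorylation were the list with the largest share of lower genes among those with at least 20 measured. Of 29 measured 0 were higher and 21 lower (median -0.71), and below 6000 UMIs 19 were lower (median -0.65). Uqcrq, a subunit of respiratory complex III, had 733 and 175 UMIs, a ratio of -0.93 (-1.17 to -0.69), and Atp5e, a subunit of the ATP synthase, was at -0.90 (-1.15 to -0.65). Ndufs4 and Sdhc were level, at -0.05 (-0.22 to 0.11) and 0.02 (-0.38 to 0.41). The sum over the list was 3918 and 2511 CPM in neuroblasts and 2883 and 1711 CPM in other nuclei, a difference in the same direction. Ribosomal protein transcripts moved with it, at 1.49% and 0.975% of UMIs in neuroblasts and 1.09% and 0.655% in other nuclei. So did Cmss1, at 2334 and 865 CPM, and AY036118, at 2998 and 1238 CPM, which were found in nearly every neuroblast of both libraries and were lower in other nuclei too. The part of RNA quality or free RNA in this difference was not tested.

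The remaining lists had medians nearer to that of all genes than the oxidative phosphorylation list had. Cholesterol and fatty acid synthesis had a median of -0.32, and 6 of its 25 genes were lower and 0 higher. Its lowest gene by interval, Msmo1, was at -0.91 (-1.26 to -0.57). Of 26 p53 and cell death genes 2 were higher and 6 lower, with Mdm2, which degrades p53, higher by 0.50 (0.24 to 0.76) and the death effector Bax lower at -0.86 (-1.25 to -0.48). In other nuclei Mdm2 was at 43.3 and 54.0 CPM and Bax at 42.8 and 26.5 CPM. Of 24 DNA replication genes 0 were higher and 3 lower (median -0.01). Notch pathway genes had 3 higher and 7 lower of 19 (median -0.20). Immediate early genes had 2 higher and 4 lower of 17 (median -0.15), Egr3 among them at -1.35 (-2.65 to -0.25). In both lists the shares past 1.5-fold were above those of all genes in each direction. Genes of the GABA system, glutamate receptors and mature neurons had medians of 0.18, 0.16 and 0.16 over all neuroblasts and of 0.11, 0.14 and 0.06 below 6000 UMIs. Rbfox3 was at 0.21 (0.04 to 0.38) over all and -0.07 (-0.39 to 0.25) below 6000 UMIs. The plot of the lists sets each gene against the median of all genes.

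**Figure D5:**
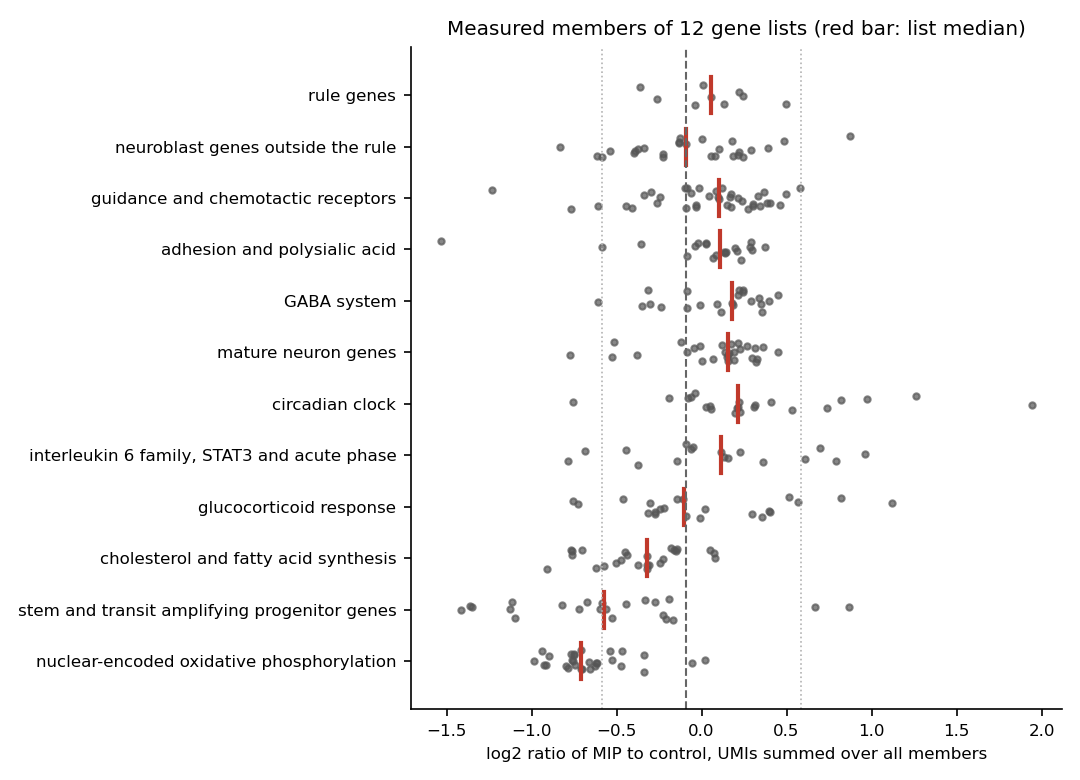
Log2 ratio of MIP to control in neuroblasts for each measured gene of 12 of the lists, with a red bar at the list's median, a dashed line at the median of all genes (-0.09) and dotted lines at 1.5-fold. Clock genes have a median of 0.22 and oxidative phosphorylation genes one of -0.71.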

How the data were processed

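The authors deposited unnormalized UMI counts by gene and barcode for 2 libraries, made with Cell Ranger 5.0.1 on mm10, per the submitters' processing notes; how barcodes were called is not given in the sources used here. Groups came from the labels. Of the control and MIP barcodes, 0 and 204 with under 500 genes and 114 and 48 with over 5% mitochondrial UMIs were left out. Neuroblasts were chosen by a fixed rule on 9 genes, not by clustering. The members and gene lists were chosen with earlier results of these data known. The stricter microglial class and the division at 6000 UMIs were set after seeing the data.

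UMIs were summed over members per library and divided by their total (CPM). Ratios have exact 95% intervals of a ratio of 2 Poisson counts, and shares have exact Clopper-Pearson intervals. Intervals cover counting error only. Genes with at least 20 UMIs over both libraries were measured, and 1.5-fold was the fold used. No p-value was computed, as nuclei are not replicates. On Poisson counts simulated for the MIP and control members, the intervals covered 96.0% of 14252 unchanged and 98.5% of 200 changed genes. The intervals assume Poisson counts too, so this checks only their computation. It cannot show how they cover genes whose UMIs lie in a few nuclei. Doublets were kept. Scrublet in Scanpy 1.11.5 marked 0 barcodes by its automatic threshold, so the alternative without doublets leaves out the top share of 0.8% per 1000 barcodes.

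Named genes were the 20 most enriched in members in both libraries, and the 15 highest and 15 lowest in MIP members ranked by whichever interval bound lay closer to equality, with at least 60 UMIs where higher and there at least 0.5 times the level of other nuclei. The rule genes, Dcx, 2 genes at each end of every list and 24 fixed genes were named too. Meg3, Gad1, Vax1, Efna5, Rnd2, Slc1a3, Scgn, Th, Calb1, Cry2, Arntl, Clock, Bhlhe41 and Ciart were chosen after their values were seen. Mitochondrial, ribosomal protein, haemoglobin and sex-linked marker genes were not ranked. Values of a few named genes are not reported here.

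Positions are from GENCODE M21 on mm10, and 200 of 200 genes matched. Python 3.11.15, NumPy 2.4.6, SciPy 1.17.1, pandas 2.3.3 and Matplotlib 3.10.9 were used. The alternatives tried were another number of rule genes, thinning, 1000 genes per barcode, no doublets, Dcx and Adarb2 limits, another denominator, equal weight per nucleus, TMM scaling and at least 60 UMIs.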

Additional observations from a re-analysis of the deposited data

How the results depend on the processing

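The ratio of neuroblast shares (log2 -0.37) was -0.65 with thinned nuclei, -0.61 with at least 1000 genes per barcode and 0.22 with the nuclei passing the Dlx part of the rule as the denominator. The count of higher genes was 374, and that of lower genes 1433, when at least 60 UMIs were required, since fewer genes were measured; 1415 were lower with thinned nuclei. Under the other settings these counts stayed within 1.5 times. Of 199 named genes with a ratio, 84 were at least 1.5 times apart with an interval that excludes equality, and reversals of genes are named for these alone. TMM scaling adds 0.08 to every log2 ratio, which turned the sign of 8 of the 115 smaller differences. Equal weight per nucleus turned 0 of the 84 and 14 of the 115, and the filter of 1000 genes 0 of either.

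The rule on thinned nuclei, with fewer UMIs, reversed Tbr1 (-0.26), Zic5 (-1.41), Myo5b (-1.09), Stat3 (-0.30), Nr4a2 (-2.26), Fosl2 (-1.41), Gli2 (0.034) and Jag2 (-1.09). Below 6000 UMIs, Zic5 (-0.51), Fosl2 (-0.24), Mobp (1.08) and 9630013A20Rik (0.23) were reversed, and 21 of 113 smaller differences changed sign, among them Gabra5 from 0.35 to -0.58 and Slc17a6 from 0.40 to -1.51. Members with Dcx and at most 2 Adarb2 UMIs reversed Hes1 (-0.52), Nr4a2 (-1.29), Jag2 (-0.031), Reln (-0.75) and Hydin (0.011). At least 4 rule genes reversed Cfap44 (0.054) and the median of the ependymal list (0.054), and leaving out the top doublet scores reversed Ttr (-0.30). Apart from fewer nuclei, the cause was not tested. Depth limits genes of under about 20 UMIs, whose intervals span more than a doubling. Intervals that wide also occur at higher counts, as for Per1 (0.22 to 1.42) on 56 control and 45 MIP UMIs. No paired analysis was possible because each group has 1 library.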
